A study of Homo sapiens with 2 samples.

Results

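The genes described here are the heat shock proteins, the J-domain proteins of the DNAJA, DNAJB and DNAJC families, and the BAG co-chaperones of Panc1, an established human pancreatic carcinoma cell line. They were taken by gene symbol, without regard to measured values, from the probe sets of an Affymetrix expression array that carry exactly 1 gene symbol. The rule found 190 of 54675 probe sets, which stand for 80 of 19775 genes. The compared populations were Panc1/mock, stably transfected with the empty vector and called drug-resistant in the series title, and Panc1/syk-wt, stably transfected with wild-type syk, the gene of a non-receptor tyrosine kinase. Both are transfected populations rather than named clones, per the labels, and both were grown under hygromycin with no other treatment, so the control carries the vector and the selection too. Each population had 1 array. No replicate error exists, no test was possible, and culture, RNA preparation and array cannot be told apart from the transfected gene.

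Heat shock proteins are molecular chaperones. HSP70 proteins bind exposed hydrophobic stretches of client proteins in a cycle driven by ATP. J-domain proteins deliver clients to HSP70 and trigger ATP hydrolysis, and BAG proteins and HSP110 proteins release the bound nucleotide so that the cycle can start again. HSP90 takes over partly folded clients, among them many kinases, small HSPs hold unfolded proteins in soluble form, and HSP60 with its lid HSP10 encloses proteins inside mitochondria. The main inducible members are switched on by heat shock factor 1 in the cytosol and by the unfolded protein response in the endoplasmic reticulum (ER), and carcinoma cells often carry them at high levels.

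All values are log2 intensities, so a difference of 1 is 2-fold, and every difference is the value on the array labelled syk minus that on the mock array. Each gene was read from the brightest of its probe sets, by the mean of the arrays. It entered the counts when that mean reached 4.25, the 50th percentile of all probe sets, which 64 of the 80 genes did. Signal at or below 4.77, the highest value of 27 bacterial control probe sets, was treated as dim. A guide to precision is the spread between probe sets of the same gene, whose differences had a pooled SD of 0.35 over 6028 genes and 0.32 over the 43 chaperone genes that had more than 1 such probe set. This spread holds no variation between cultures.

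The labelled identities were checked as far as the arrays allow. SYK had 4 probe sets, and its brightest read 4.27 on mock and 4.73 on syk, both below 4.77. The others differed by -0.27, -0.07 and -0.09. The introduced gene was thus not clearly visible, and which array is which was taken from the labels. Of 7 epithelial and ductal markers, all past the filter, 5 lay below 0, the median over the 7 was -0.49, and their part in the results was not tested. The keratins KRT18, KRT8 and KRT19 read 13.3, 11.1 and 10.9 on mock and 13.1, 10.3 and 9.44 on syk. KRT7 differed by -0.49, EPCAM by 0.30 and the ductal transcription factor SOX9 by 0.34, and CDH1 (E-cadherin) read 6.34 on mock and 3.47, dim, on syk. All 4 endothelial markers, and each leukocyte marker (4 of 5) and acinar marker (3 of 5) that had a value here, lay at or below 4.77 on both arrays. So did 5 of 7 fibroblast markers. The summed linear fibroblast signal was 2383 on mock and 1167 on syk, carried by COL1A1, and its part in the results was not tested. The 3' minus 5' difference of the ACTB control probe sets, a sign of RNA integrity, was 1.95 on mock and 2.37 on syk. For GAPDH this difference was 0.19 on mock and 0.32 on syk, and its part in the results was likewise not tested.

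The chaperone genes differed between the arrays by about as much as other genes, with a median absolute difference of 0.31 against 0.30 over all genes. Of the 64 genes, 2 were at least 2-fold higher on the syk array, HSPB8 and DNAJC6, and 0 were at least 2-fold lower. DNAJC6 read 4.23 on mock, below the filter level of 4.25, and passed the filter only through the syk array, where it was higher. Over all 12814 genes past the filter, 3.61% were higher by that much and 3.65% lower, so 2 of 64 is no more than the background. With a lower threshold of 1.5-fold, chosen after the data had been seen, 8 of the 64 genes were higher, against 12.2% of all genes, and 3 were lower, against 10.5%. The 8 were HSPB8, DNAJC6, DNAJA3, DNAJA4, DNAJB11, DNAJC12, DNAJC15 and DNAJC30, and the 3 were HSPB1, HSP90B1 and HSPE1. DNAJC12 was dim on mock, likewise passed the filter only through the syk array, and is at least 1.06-fold higher against the dim level. Differences below the probe set SD of 0.35 were found in 36 of the 64 genes (56.2%), as in 55.7% of all genes. The median difference was 0.21, against 0.01 over all genes, and 42 of the 64 genes (65.6%) lay above 0, against 50.8% of all genes. Averaging all probe sets of each gene, dim ones included, gave a median of 0.07 over 59 genes, of which 33 lay above 0 (55.9%, against 51.4% of all genes). Of the 80 genes, the 16 beside these 64 were too dim to enter. They include the muscle proteins HSPB3 and HSPB7, the testis proteins HSPB9 and DNAJB8, and all 5 noncoding RNAs whose symbols share a prefix with a chaperone, such as DNAJC9-AS1.

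**Figure D1:**
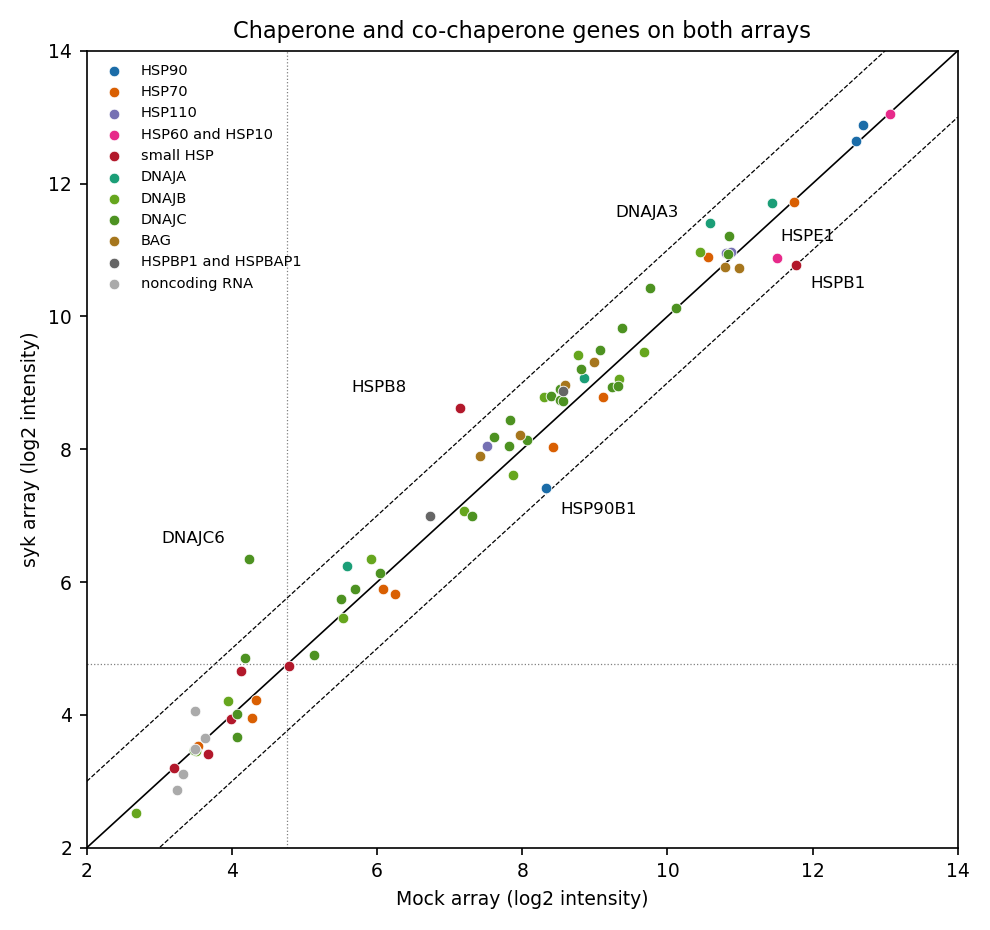
Each point is 1 of the 80 chaperone or co-chaperone genes, with its log2 intensity on mock (horizontal axis) and on syk (vertical axis), coloured by family. The solid line marks equal values, the dashed lines 2-fold differences and the dotted lines the dim level of 4.77. HSPB8 and DNAJC6 are the 2 genes above the upper dashed line past the filter, and HSPB1 and HSP90B1 lie just inside the lower one.

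The small HSPs HSPB8 and HSPB1 differed in opposite directions. HSPB8, which works with BAG3 to route damaged proteins to autophagy, read 7.15 on mock and 8.62 on syk, 2.78-fold higher. The syk population was the brighter one, and 1.42% of all genes showed a larger upward difference. This value rests on 1 probe set, since the other read 3.70 and 4.15, dim on both arrays, and the mean over both was 0.96, under the threshold. HSPB1 (HSP27), an abundant small HSP that also binds actin, read 11.8 on mock and 10.8 on syk, 1.99-fold lower. It was bright on both arrays, fell just short of the 2-fold threshold with a difference of -0.99, and has a single probe set. Removing the trend of the difference on brightness took HSPB1 past the threshold, with a difference of -1.01. HSPB6 read 4.12 and 4.67, at or below the dim level on both arrays, and HSPB2 read 4.78 and 4.73, so no fold is given for these muscle-associated relatives.

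The promoters of HSPB8 and HSPB1 are shown because these genes of 1 family differed in opposite directions and both promoters hold a core of the heat shock element, the binding site of heat shock factors. The windows run from 250 bases before to 50 bases after the gene start, from RefSeq (GRCh38.p14). Capitals mark GAA and TTC in either order with 2 bases between them, a core that reads the same on both strands. The HSPB8 window is chr12:119178681-119178980, plus strand, and the HSPB1 window is chr7:76302423-76302722, plus strand.
HSPB8: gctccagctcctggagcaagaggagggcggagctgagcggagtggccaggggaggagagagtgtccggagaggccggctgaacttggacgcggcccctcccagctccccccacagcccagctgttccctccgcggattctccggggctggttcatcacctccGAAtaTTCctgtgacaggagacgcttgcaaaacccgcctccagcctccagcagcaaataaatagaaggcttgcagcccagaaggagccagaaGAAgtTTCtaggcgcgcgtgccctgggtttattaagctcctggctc
HSPB1: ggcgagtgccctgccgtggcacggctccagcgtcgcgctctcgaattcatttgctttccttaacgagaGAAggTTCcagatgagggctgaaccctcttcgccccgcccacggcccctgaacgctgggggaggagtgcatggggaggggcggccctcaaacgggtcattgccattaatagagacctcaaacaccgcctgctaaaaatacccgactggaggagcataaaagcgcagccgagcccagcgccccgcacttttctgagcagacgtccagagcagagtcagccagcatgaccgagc
HSPB8 held 2 such cores and HSPB1 held 1. Of the 80 genes, 72 had a promoter in the table, and 12 of these (16.7%) held at least 1 core, against 13.7% of 27305 promoters. The longer forms with 3 alternating units, each 2 bases apart, searched on both strands and containing the core, occurred in 3 of 72 (4.17%), namely HSPA6, DNAJA1 and DNAJB6, against 0.487% of all promoters. Among the 10 genes past the filter with a core, differences ran from -0.99 to 1.47, with 6 above and 4 below 0. Of all genes, 50.8% lay above 0. HSPB6 among the 6 and HSPA6 among the 4 were dim on both arrays, and each passed the filter only through its higher array. A core in this window therefore went with both directions, and such a match is a description of letters, not of binding.

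In the HSP90 family the cytosolic paralogs differed little and the ER paralog was lower on the syk array. HSP90AA1, the stress-inducible cytosolic form, read 12.7 on mock and 12.9 on syk, and its 4 probe sets differed by 0.17 to 0.38. HSP90AB1, the constitutive cytosolic form, read 12.6 on both arrays, with a difference of 0.05 and 3 probe sets between -0.61 and 0.05. These values place both cytosolic forms near the middle of all genes. HSP90B1 (GRP94), which folds integrins and Toll-like receptors in the ER, read 8.33 on mock and 7.42 on syk, 1.88-fold lower. Its second probe set read 7.83 and 6.25, a difference of -1.58 and 1 of 3 chaperone probe sets past the filter at least 2-fold lower. The mean over both was -1.24, past the threshold. Both probe sets are of the type that may cross-hybridise with related sequences. The array holds 2 further probe sets annotated jointly to HSP90B1 and the microRNA gene MIR3652, which the rule leaves out. They differed by -0.95 (11.4 and 10.4) and -1.19 (8.71 and 7.52), so all 4 probe sets that name HSP90B1 were lower on the syk array.

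Of the 7 HSP70 genes past the filter, 6 lay below 0 by their brightest probe sets, with a median of -0.19, while 50.8% of all genes lay above 0. By probe set the family was divided, with 6 above and 8 below 0 and a median of -0.02, and the median was -0.005 when probe sets were averaged. No test of the family's direction was possible. HSPA5 (BiP, GRP78), the HSP70 of the ER, read 11.7 on both arrays, a difference of -0.02. HSPA13, an ER-associated relative, differed by -0.32 by its brighter probe set and by 0.31 by its other one. HSPA14, a ribosome-bound relative, differed by -0.40, -0.02 and 0.71 in its 3 probe sets. The direction of HSPA13 and HSPA14 thus depends on the probe set. HSPA2, an HSP70 best known from testis, read 6.25 and 5.82 with its single probe set, 1.35-fold lower. HSPA1L, another testis form, differed by -0.19 and 0.18, and HSPA6, which is strictly stress-induced, read 4.34 and 4.23, dim on both arrays. HSPA9 (mortalin), which pulls proteins into mitochondria, was the exception at 10.6 on mock and 10.9 on syk, and its 3 probe sets past the filter differed by 0.28 to 0.38.

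The classic stress-inducible HSP70 genes and the constitutive HSC70 lie outside the rule because their probe sets carry several symbols. Of the 3 probe sets annotated jointly to the near-identical HSPA1A and HSPA1B, 1 of them also to HSPA1L, all were lower on the syk array, with differences of -0.35, -0.45 and -0.48. The 4 probe sets annotated to HSPA8 with 2 small nucleolar RNAs differed by -0.17, 0.10, 0.16 and 0.20. These values belong to the joint annotations and enter no count.

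The ER members HSP90B1 and HSPA5 are standard targets of the unfolded protein response, and their promoters are shown because both hold its element while their differences were -0.91 and -0.02. Capitals mark the ER stress element, CCAAT and CCACG with 9 bases between them, or its reverse complement. The HSP90B1 window is chr12:103930160-103930459, plus strand, and the HSPA5 window is chr9:125241294-125241593, minus strand.
HSP90B1: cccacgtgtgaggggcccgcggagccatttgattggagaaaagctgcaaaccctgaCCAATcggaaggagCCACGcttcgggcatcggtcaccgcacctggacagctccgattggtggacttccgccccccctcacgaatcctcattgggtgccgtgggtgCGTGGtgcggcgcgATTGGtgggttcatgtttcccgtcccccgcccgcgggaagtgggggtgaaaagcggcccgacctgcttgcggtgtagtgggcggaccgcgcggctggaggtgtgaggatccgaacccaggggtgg
HSPA5: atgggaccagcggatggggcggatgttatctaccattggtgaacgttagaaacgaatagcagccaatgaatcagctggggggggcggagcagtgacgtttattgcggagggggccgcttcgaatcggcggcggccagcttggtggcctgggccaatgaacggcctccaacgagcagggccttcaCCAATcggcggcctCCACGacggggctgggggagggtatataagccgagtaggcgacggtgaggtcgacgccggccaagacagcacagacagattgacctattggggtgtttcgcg
HSP90B1 held 2 such elements, 1 on each strand, and HSPA5 held 1. No other chaperone promoter in the table matched, which makes 2 of 72 (2.78%) against 0.0806% of all promoters. The differences of the ER pair thus lay further apart than the probe set SD although both windows hold the element.

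The mitochondrial chaperonin pair also parted. HSPD1 (HSP60), the barrel, read 13.1 on both arrays, a difference of -0.01, and its other probe sets past the filter differed by -0.25 and 0.59. The probe set at 0.59 read only 4.82 on mock and 5.42 on syk, close to the dim level. HSPE1 (HSP10), the lid, read 11.5 on mock and 10.9 on syk, 1.54-fold lower by its single probe set. The genes lie head to head and are known to share a bidirectional promoter. Their 300-base windows overlap by 204 bases, which are in capitals in the HSPE1 window (chr2:197500129-197500428, plus strand), shown because the paired genes gave unequal differences.
HSPE1: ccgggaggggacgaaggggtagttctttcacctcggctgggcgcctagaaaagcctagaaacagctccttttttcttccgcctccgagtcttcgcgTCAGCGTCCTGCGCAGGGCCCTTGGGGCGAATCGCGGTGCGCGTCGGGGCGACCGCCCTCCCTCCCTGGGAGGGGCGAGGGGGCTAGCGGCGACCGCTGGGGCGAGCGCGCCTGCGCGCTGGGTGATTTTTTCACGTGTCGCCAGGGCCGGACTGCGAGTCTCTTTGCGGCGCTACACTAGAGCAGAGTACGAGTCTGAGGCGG
None of the heat shock or ER stress motifs above was found in either window.

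HSP110 proteins, large relatives of HSP70 that act as its nucleotide exchange factors, were above 0 by their brightest probe sets, but 4 of their 9 probe sets lay below it. HSPA4L read 7.51 on mock and 8.06 on syk, and its probe sets differed by 0.54 and 0.60. HSPH1 differed by 0.15 and had 1 of 3 probe sets below 0. HSPA4 differed by 0.10 in its brightest probe set, while its other 3 lay between -0.36 and -0.12. HSPA4L is the one gene of this family beyond the probe set SD as read.

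**Figure D2:**
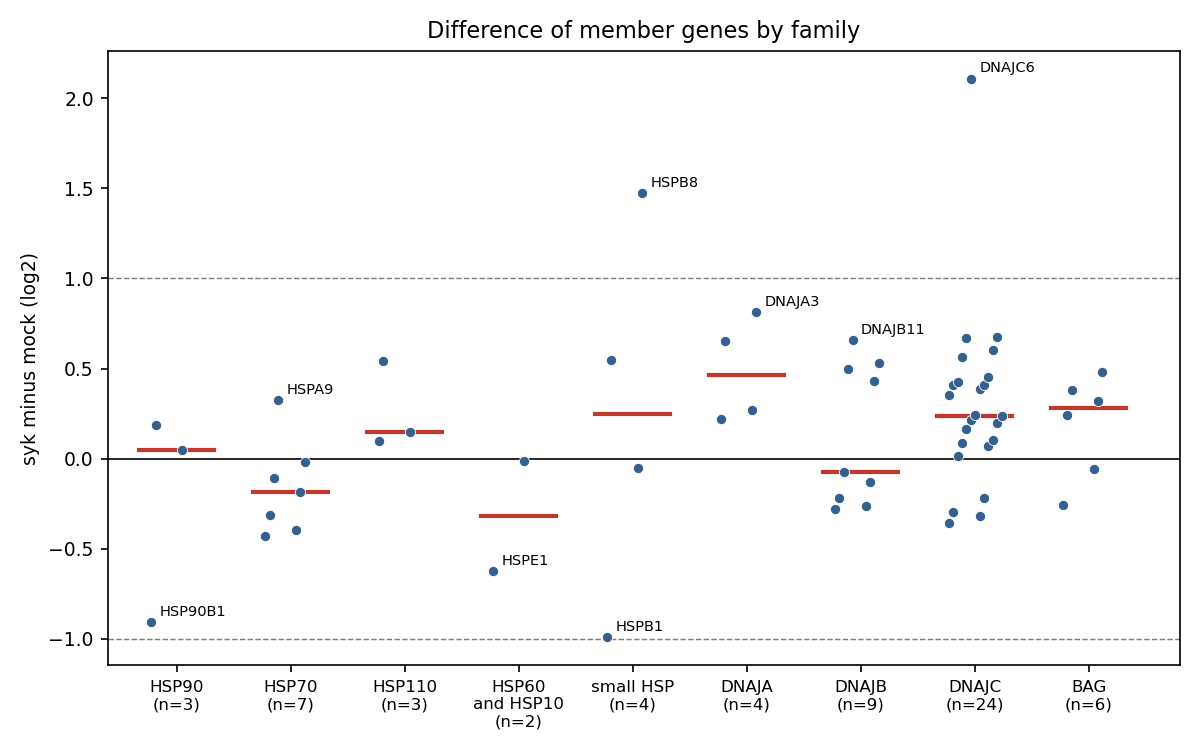
Each point is a gene past the filter, with its difference syk minus mock on the log2 scale (vertical axis), by family (horizontal axis); red bars are family medians and dashed lines 2-fold. All 4 DNAJA genes and 20 of 24 DNAJC genes lie above 0, while 6 of 7 HSP70 genes lie below it, HSPA6 among them dim on both arrays.

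J-domain proteins made up most of the genes and most of the upward lean. Of 37 DNAJ genes past the filter, 28 (75.7%) lay above 0, against 50.8% of all genes, with a median of 0.24. When probe sets were averaged, 22 of 34 did, with a median of 0.20. Only DNAJC6 passed 2-fold upward, against 3.61% of all genes, and 0 passed it downward, against 3.65%. Of the 26 DNAJ genes with more than 1 probe set past the filter, some of them dim, 15 had every one above 0 and 2 had every one below 0. Of all 6028 genes with several such probe sets, 60.9% kept 1 sign. That share was not split by direction, so the counts of 15 and 2 have no background of their own.

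All 4 DNAJA genes, the HSP40 class closest to bacterial DnaJ, were above 0. DNAJA3 (TID1), the mitochondrial member that partners HSPA9, read 10.6 on mock and 11.4 on syk, 1.76-fold higher, and its probe sets differed by 0.81 and 0.85. This was the largest upward difference with more than 1 probe set in support. DNAJA4 differed by 0.66, with its 3 probe sets past the filter between -0.03 and 0.84. DNAJA1 and DNAJA2, the main cytosolic members, differed by 0.27 and 0.22, and all their probe sets lay above 0.

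The DNAJB family was split. DNAJB11, a soluble ER partner of HSPA5, read 8.77 on mock and 9.43 on syk, 1.58-fold higher by a single probe set. DNAJB1 (HSP40), the stress-inducible cytosolic partner of HSP70, read 10.4 and 11.0, and its probe sets differed by 0.53 and 0.61. DNAJB9, an ER protein that represses the stress sensor IRE1, differed by 0.50 (1.41-fold) by its brightest probe set and by 0.00 in its lowest. These values lay above the probe set SD for the gene as read, as did DNAJB4 at 0.43. The other probe set of DNAJB4, nearly as bright, differed by only 0.09, and the mean over both was 0.26, under that SD. DNAJB12, DNAJB14, DNAJB6, DNAJB2 and DNAJB5 lay between -0.28 and -0.07. DNAJB12 and DNAJB14, ER membrane proteins that help degrade misfolded proteins, had probe sets on both sides of 0.

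DNAJC proteins share only the J domain and serve particular processes. DNAJC6 (auxilin), which with HSPA8 strips clathrin from vesicles, read 4.23 on mock and 6.34 on syk. Because the mock value was dim, the fold is at least 2.99 against the dim level, and the second probe set read 3.09 and 3.19, dim on both arrays. DNAJC6 thus stands out on the syk array by 1 probe set of 2, and with its probe sets averaged it was too dim to enter. DNAJC12 read 4.18 and 4.86, also dim on the mock array.

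Several mitochondrial DNAJC genes were higher by moderate amounts. DNAJC15 and DNAJC19, inner membrane partners of the protein import motor, read 9.76 and 8.80 on mock, and 10.4 and 9.21 on syk. Their probe sets past the filter differed by 0.31 to 0.67 and by 0.35 to 0.41. DNAJC11, part of the cristae-organising complex, differed by 0.39 and 0.21, and DNAJC30 by 0.60 and, in another probe set, -0.44. Apart from DNAJC30, the probe sets of each of these genes past the filter had the same sign.

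Elsewhere in the family the ER membrane protein DNAJC1 was higher in all 3 probe sets (0.41 to 0.47) and DNAJC16 in all 3 (0.05 to 0.56). DNAJC3 (p58IPK), an ER co-chaperone induced by the unfolded protein response, was higher in all 4 (0.17 to 0.68). DNAJC8, a nuclear protein linked to splicing, was higher in all 3 (0.22 to 0.38). Lower values were found for DNAJC10 (ERdj5), an ER reductase that opens disulfide bonds of misfolded proteins, at -0.36 with 4 probe sets past the filter, all below 0. The lowest of these, at -1.10, was dim on syk and is -0.40 against the dim level, and the others lay between -0.43 and -0.14. DNAJC4 was at -0.32, DNAJC13, an endosomal protein, at -0.30, and DNAJC17 at -0.22. DNAJC5 (cysteine string protein of secretory vesicles) and the ribosome-associated DNAJC2 differed by 0.07 and 0.01. DNAJC7, which binds both HSP70 and HSP90, was at 0.43 by its brightest probe set, while another read 4.79, barely above the dim level, and 3.74, dim, so that its -1.06 is -0.03 against that level. DNAJC21, a ribosome biogenesis factor, was at 0.41 and had a second probe set past the filter at -0.82.

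Among the 6 BAG genes 0 passed 2-fold, against 3.61% of all genes higher and 3.65% lower. BAG4, which silences death receptor signalling, read 7.42 on mock and 7.90 on syk a difference of 0.48, and its other probe sets were dim on both arrays. Leaving out probe sets dim on both arrays, BAG5 differed by 0.38 and 0.30 in its probe sets and BAG6, which guards tail-anchored membrane proteins, by -0.38 to -0.18. BAG2, an inhibitor of the ubiquitin ligase CHIP, and BAG1 differed by 0.32 and 0.24 by their brightest probe sets and had others below 0. BAG3, the heat shock factor target that partners HSPB8, read 10.8 and 10.7, a difference of -0.06 beside the 1.47 of HSPB8. The BAG median of 0.28 turned to -0.05 when probe sets were averaged. The HSP70-binding exchange factor HSPBP1 and the HSPB1-associated HSPBAP1, which share only a prefix with the small HSPs, differed by 0.31 and 0.27.

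**Figure D3:**
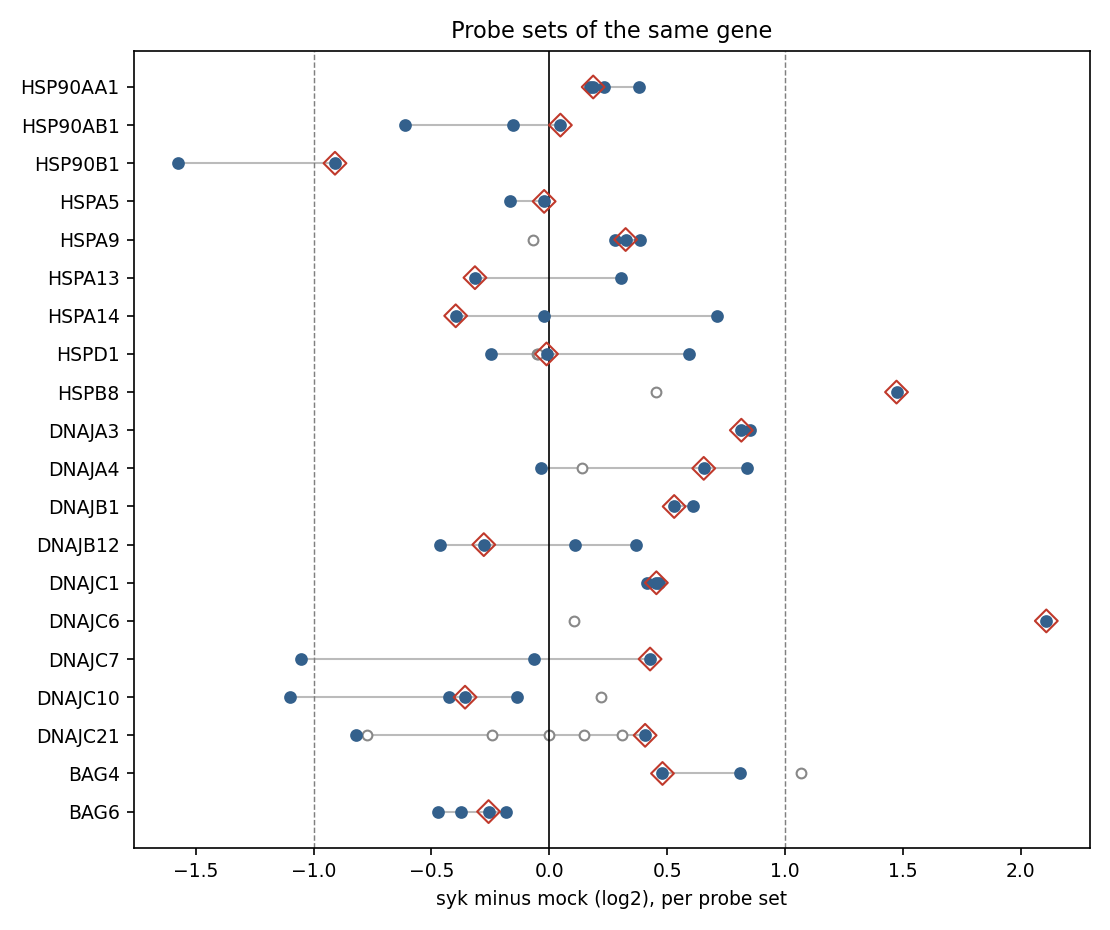
Each row is a gene and each circle 1 of its probe sets, placed at its difference syk minus mock on the log2 scale; filled circles passed the filter, open circles were too dim, and red diamonds mark the probe set used for the gene. DNAJA3 and DNAJC1 have tight probe sets above 0, HSP90B1 and BAG6 lie below 0, and HSPA14, DNAJC7 and DNAJC21 span 0.

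Over all chaperone genes, probe sets of a gene had no opposite signs in 26 of 43 genes (60.5%). These include DNAJB9, which had a probe set at exactly 0. Of the 6028 genes with several probe sets, 60.9% had every one strictly on 1 side of 0, a slightly stricter count. Of the 138 chaperone probe sets past the filter, 84 (60.9%) lay above 0, against 49.6% of all such probe sets. Only 2 of them were at least 2-fold higher, against 3.33% of all, and 3 at least 2-fold lower, against 3.48%. Of the 3, those of DNAJC10 and DNAJC7 were dim on syk and under 2-fold against the dim level, and the remaining one is the second probe set of HSP90B1.

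By cell compartment, assigned from general knowledge of each protein, mitochondrial genes had the highest median. It was 0.40 over 8 genes, of which 6 lay above 0, with DNAJA3 and DNAJC15 at the top and HSPE1 and HSPD1 below 0. When probe sets were averaged, the mitochondrial median was 0.26. Over all genes past the filter the median was 0.01, and 50.8% lay above 0. Genes of the cytosol and nucleus had a median of 0.20 over 36 genes, of which 24 lay above 0, but -0.005 when probe sets were averaged. ER genes had a median of 0.17 over 13 genes, 7 above and 6 below 0, and spanned -0.91 (HSP90B1) to 0.66 (DNAJB11). In the ER the upper values were those of the J-domain proteins DNAJB11, DNAJC16 and DNAJB9, while HSP90B1, both HSP70 genes and the J-domain proteins DNAJC10, DNAJB12 and DNAJB14 lay below 0. These are values of the brightest probe sets. HSPA5 differed by only -0.02, and HSPA13, DNAJB12 and DNAJB14 also had probe sets above 0. The compartments overlap widely, and the differences between their medians were not tested.

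**Figure D4:**
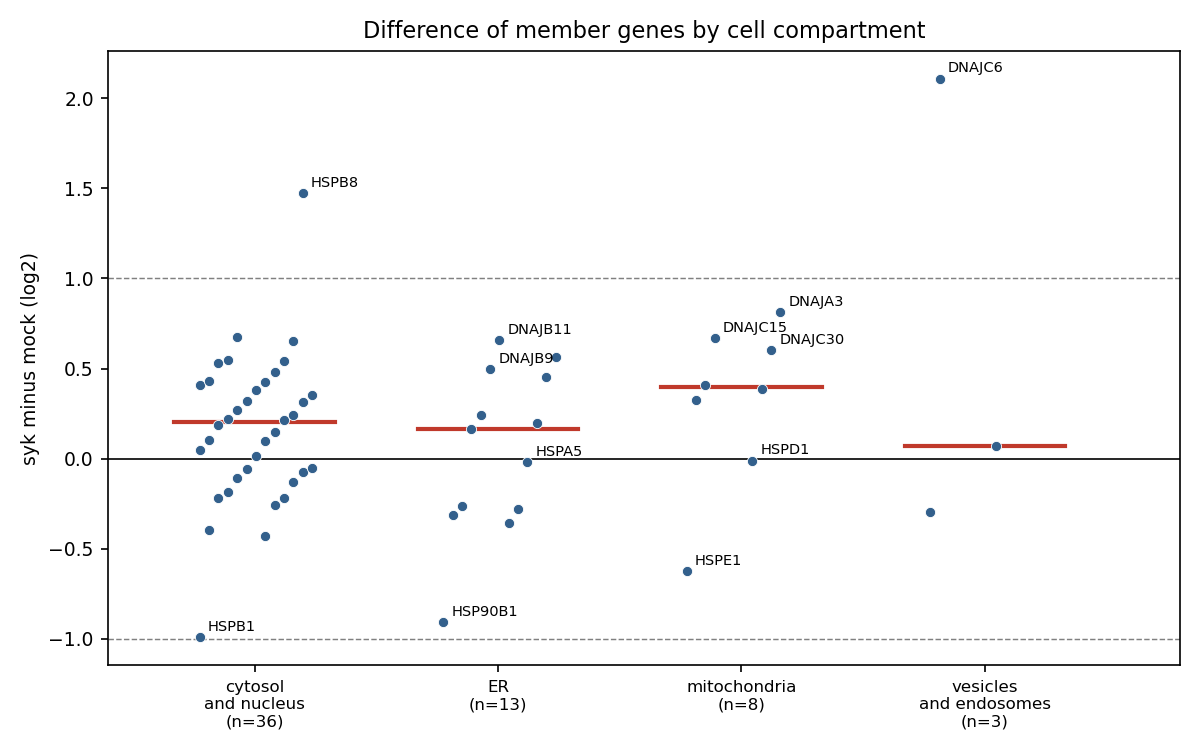
Each point is a gene past the filter, with its difference syk minus mock on the log2 scale (vertical axis), by the compartment where its protein works (horizontal axis); red bars are medians and dashed lines 2-fold. The mitochondrial median of 0.40 is the highest, and ER genes run from -0.91 to 0.66.

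Genes that work with these chaperones were read from lists. Of 20 HSP90 co-chaperones past the filter, 0 passed 2-fold in either direction, against 3.61% of all genes higher and 3.65% lower. Their median was 0.15. The largest difference was that of TTC4, which bridges HSP90 and HSP70, at 8.20 and 9.17 (0.97) by its single probe set. CDC37L1 differed by 0.74, but it was dim on mock (4.24) and passed the filter only through the syk array. Against the dim level CDC37L1 is at least 1.16-fold higher. The immunophilin FKBP4 differed by 0.64, the S100-binding CACYBP by -0.36 and SUGT1 by 0.43, although the 4 probe sets of SUGT1 past the filter ran from -0.64 to 0.43. Of 14 listed subunits of the TRiC chaperonin and of prefoldin, which fold actin and tubulin, TCP1 and PFDN6 had no value here. The other 12 lay above 0, against 50.8% of all genes, with a median of 0.28 and a range of 0.03 to 0.54. Of these 12, 0 passed 2-fold, beside the same shares of all genes. Some of them, such as CCT4 (0.49) and CCT5 (0.27), also had a probe set below 0. HSF1, the master regulator of the heat shock response, read 7.34 and 7.37, and its list of 4 had a median under 0.01.

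In the mitochondrial list, 10 of 12 genes lay above 0, against 50.8% of all genes, with a median of 0.44. Of the 12, 1 was past 2-fold upward and 0 downward, against 3.61% and 3.65% of all genes. The one past 2-fold was HSCB, a J-domain protein of iron-sulfur cluster assembly whose symbol does not carry the DNAJ prefix, at 7.01 on mock and 8.09 on syk, 2.12-fold higher by its single probe set. TRAP1, the mitochondrial HSP90, differed by 0.68, the import motor subunit PAM16 by 0.68, the nucleotide exchange factor GRPEL1 by 0.48 and the protease HTRA2 by 0.80. The proteases YME1L1 (-0.77) and AFG3L2 (-0.44) were the exceptions. Of the 4 exchange factors SIL1, HYOU1, GRPEL1 and GRPEL2, HYOU1 alone lay below 0, at -0.25. HYOU1 is also in the ER list, and GRPEL1 and GRPEL2 in the mitochondrial one.

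The ER list had 25 genes past the filter, 13 above and 12 below 0, and a median of 0.01. It held 0 genes at least 2-fold higher, against 3.61% of all genes, and 1 at least 2-fold lower, against 3.65%. The 1 was the oxidase ERO1B, at 5.23 on the mock and 4.08, dim, on the syk array. It passed the filter only through the mock array, where it was higher. Against the dim level ERO1B is at least 1.38-fold lower. The groups named next were formed after their values were seen. The disulfide isomerases PDIA3 (-0.83), PDIA4 (-0.67), P4HB (-0.34) and PDIA6 (-0.20) and the lectin chaperones CALR (-0.45) and CANX (-0.27) were below 0 in all their probe sets past the filter, while SDF2L1 (0.61), MANF (0.14) and CRELD2 (0.12) lay above 0. Among sensors and transcription factors of the stress response, DDIT3 (0.74), XBP1 (0.72), ERN1 (IRE1, 0.61), ATF4 (0.53) and EIF2AK3 (PERK, 0.23) were above 0 and ATF6 (-0.14) below it. The list thus held values on both sides. Of its 25 genes, 4 were past 1.5-fold higher, against 12.2% of all genes, and 3 past 1.5-fold lower, against 10.5%. The 3 include ERO1B, which is under 1.5-fold against the dim level.

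**Figure D5:**
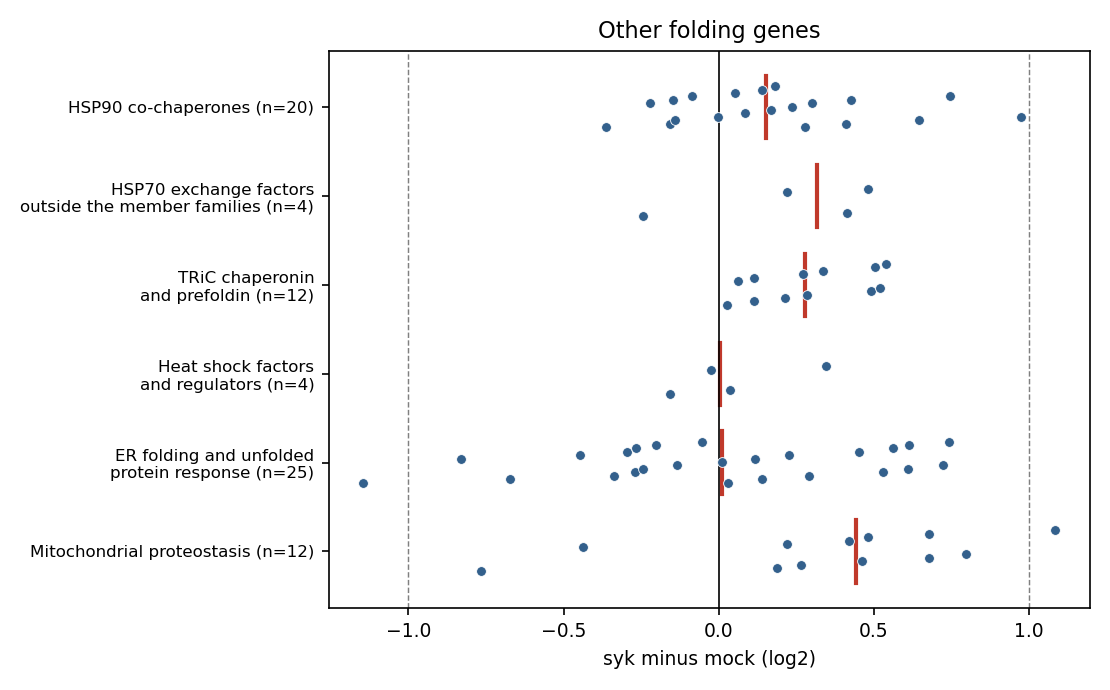
Each point is a gene past the filter in 1 of 6 lists of folding genes outside the chaperone families (rows), placed at its difference syk minus mock on the log2 scale; red bars are medians and dashed lines 2-fold. The 12 TRiC and prefoldin genes with a value lie above 0, and HSCB is beyond 2-fold in the mitochondrial list.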

How the data were processed

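Expression was measured with 1 array for each of 2 samples. The authors deposited log2 intensities per probe set made with RMA (background subtraction, quantile alignment of arrays and probe summary), per the submitters' processing notes, which give no version or settings; the log2 scale was read from the range 2.14 to 14.6. RMA compresses differences of dim probe sets, no detection calls were used, and the number of arrays limits the precision. Gene symbols came from the platform annotation: 41097 probe sets had 1 symbol, 1801 several and 11777 none, and 41043 matched a current RefSeq gene ID (GRCh38.p14). Column use was complete (0 columns unused).

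The difference syk minus mock was computed in Python 3.11.15 with pandas 2.3.3 as described in the results. The calculation was tested on simulated data. Compartments and lists were assigned by hand, and the genes and lists were chosen with earlier results of these data known. Named are the genes past 2-fold, up to 4 per family by absolute difference, and a core set of well-known chaperones; others named here were picked after their values were seen. Promoters came from a RefSeq table (GRCh38.p14). A planned comparison of protein sequences was not made. Alternatives were other centring (median, or loess with span 0.2), probe set summaries, filters and a floor at 4.77.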

Additional observations from a re-analysis of the deposited data

How the results depend on the processing

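Each group has 1 array, so no replicate could be left out. No paired analysis was possible because each group has 1 array and the labels carry no replicate number. A median was counted as moved when it changed by more than the probe set SD of 0.35 divided by the square root of the number of genes. A count was taken as moved when it changed by more than a factor of 1.5, or to or from 0. The comparisons include the 1.5-fold threshold, which was not planned. Of 146 comparisons of counts and medians over all chaperone genes, families and compartments, 110 stayed within these limits and 36 moved. The count at least 2-fold higher (2) was 0 with the mean or the median over probe sets and with probe sets ending in _at alone, 1 with the 75th percentile filter and 8 at 1.5-fold. The count at least 2-fold lower (0) was 1 after loess and with the mean or median over probe sets, and 3 at 1.5-fold.

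For medians, the chaperone genes as a whole gave 0.0718 with the mean or median over probe sets and 0.0928 without a filter, against 0.21. With the mean over probe sets the medians were -0.005 for the cytosol and nucleus, 0.26 for mitochondria, -0.0478 for BAG genes, -0.005 for HSP70, -0.24 for HSP90 and -0.0506 for small HSPs. With the median over probe sets they were 0.0152 for the cytosol and nucleus, -0.0895 for BAG genes, 0.042 for DNAJB, 0.12 for DNAJC, -0.0138 for HSP70, -0.16 for HSP90 and -0.0506 for small HSPs. Probe sets ending in _at alone gave 0.13 for the cytosol and nucleus, 0.59 for mitochondria, -0.30 for vesicles and endosomes, 0.24 for DNAJA, -0.0519 for HSP110, 0.59 for HSP60 and HSP10 and -0.0506 for small HSPs. Both values of 0.59 are that of 1 HSPD1 probe set, which read 4.82 on mock and 5.42 on syk, close to the dim level. The floor gave 0.13 for the cytosol and nucleus and -0.0086 for small HSPs, the 75th percentile filter 0.27 for DNAJA, and no filter -0.0481 for small HSPs. Signs of the cytosolic, BAG, HSP90, HSP110, HSP60 and HSP10, small HSP, DNAJB and vesicle medians thus turn with the choice of probe sets, that of small HSPs also with the floor or without a filter, and that of vesicle genes (0.07) also with the 75th percentile filter or none (-0.11 with each). The signs of the DNAJA, DNAJC, mitochondrial, ER and HSP70 medians held under all 9 alternatives of scaling, probe set summary, filter and floor. The ER median ran from 0.07 to 0.19. That of HSP70 was close to 0 with the mean or median over probe sets (-0.005 and -0.0138). DNAJB9, HSPB1 and HSP90B1 moved by less than 0.35 under each of these that gave them a value. Dim signal limits DNAJC6, DNAJC12, HSPA6 and HSPB6.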

Other observations

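A further gene of the J-domain group, DNAJC25, had no probe set of its own. The probe set annotated to it together with the readthrough gene DNAJC25-GNG10 read 6.51 on mock and 6.90 on syk. Another 2 probe sets, annotated jointly to DNAJB6 and TMEM135, differed by 0.02 and 0.10, against -0.22 in the probe set of DNAJB6 alone.

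Some values were identical on both arrays. This was so for 2189 of 54675 probe sets (4%) and for 9 of the 190 chaperone probe sets, and 4 of the 80 chaperone genes had a difference of 0 in the probe set read, all below the filter.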
